A study of Mus musculus with 36 samples.

Results

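Olfactory receptor genes (symbols starting with Olfr) formed 910 stretches of the mouse autosomes in which single-strand breaks and abasic sites were counted. The stretches were obtained by adding 5 kb on each side of every autosomal protein-coding Olfr gene of the GRCm38 RefSeq annotation and merging those that overlapped. They held 1103 Olfr genes and covered 12.5 Mb, or 0.522% of the autosomes. Merged together, all 20558 autosomal protein-coding genes formed 11260 stretches. In 767 of the 910 regions there was a single Olfr gene, the largest merged region held 6, and 19 regions overlapped a protein-coding gene of another family. The genes were spread over 16 chromosomes, with 287 on chromosome 2, 239 on chromosome 7, 130 on chromosome 9 and 83 on chromosome 11. A further 1 Olfr gene had no chromosomal placement in the annotation and was not used.

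All libraries came from male C57BL/6J mice at 24 months of age, untreated and carrying no engineered allele as far as the labels say, with 2 animals for each of 6 tissues: bone marrow after lysis of red cells, brain, heart, liver, peripheral blood mononuclear cells (PBMCs) from a Ficoll gradient, and motile sperm from the epididymis. DNA of each sample was profiled for single-strand breaks (SSBs) by SSiNGLe, which marks free 3′ ends of broken strands, and for apurinic/apyrimidinic (AP) sites by SSiNGLe-AP, which first turns sites that have lost their base into breaks. This gave 24 libraries, each a list of single-nucleotide lesion positions on one strand, with 225011 to 1041983 positions per SSB library and 460719 to 963258 per AP library. Sperm DNA was purified with another kit than the other tissues, so kit and tissue cannot be told apart for sperm, and a tissue sample is a mixture of cells in which a lesion shared by many cells and a lesion of few cells are listed alike. The extraction protocol in the labels speaks of 2 mice as the source of all tissues, and no label ties a replicate number to a mouse, so p-values over tissues may describe the spread within these animals. RNA libraries of the same samples were not analysed here, and the labelled tissues were not checked against marker genes.

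Olfactory receptors are G protein-coupled receptors of the nose, and their genes form the largest gene family of the mouse. Most are short, with the whole coding sequence in a single exon, and lie side by side in clusters with few other genes. Each olfactory neuron transcribes a single allele of a single member and keeps the others in compact, silent chromatin, and outside the nose nearly all members are silent. By sequence the family falls into class I receptors, related to those of fish and gathered on chromosome 7, and class II receptors, which make up the rest of the family.

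To show what the listed lesions look like before annotated receptor gene starts, sequence upstream of 5 Olfr genes is printed. The 4 genes with the most lesions in their promoter window (10 each, over all 24 libraries) are shown first and Olfr16, a receptor known from sperm, is added. The 250 bases before the annotated gene start are given 5′ to 3′ on the gene's strand, from the RefSeq promoter table of GRCm38.p6. For Olfr457 and Olfr572 the annotated start is the ATG start codon, so their bases lie before the coding sequence. Capitals mark nucleotides listed as a lesion position, on either strand, in at least 1 library.
Olfr287 (chr15:98221057-98221306, minus strand): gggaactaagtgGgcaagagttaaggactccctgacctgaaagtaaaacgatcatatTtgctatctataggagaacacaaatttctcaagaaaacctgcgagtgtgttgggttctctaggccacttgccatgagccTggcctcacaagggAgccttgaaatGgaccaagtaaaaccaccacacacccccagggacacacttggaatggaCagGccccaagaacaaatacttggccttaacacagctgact
Olfr324 (chr11:58597095-58597344, plus strand): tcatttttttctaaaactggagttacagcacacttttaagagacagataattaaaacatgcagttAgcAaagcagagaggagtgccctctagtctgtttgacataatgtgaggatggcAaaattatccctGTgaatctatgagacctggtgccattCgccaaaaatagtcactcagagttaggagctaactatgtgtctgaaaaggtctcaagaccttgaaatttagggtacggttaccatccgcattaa
Olfr457 (chr6:42472177-42472426, minus strand): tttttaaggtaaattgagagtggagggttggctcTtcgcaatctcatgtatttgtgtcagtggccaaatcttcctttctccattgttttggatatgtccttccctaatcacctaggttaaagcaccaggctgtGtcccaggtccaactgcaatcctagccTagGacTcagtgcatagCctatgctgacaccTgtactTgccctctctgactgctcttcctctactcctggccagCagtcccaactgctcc
Olfr572 (chr7:102927380-102927629, plus strand): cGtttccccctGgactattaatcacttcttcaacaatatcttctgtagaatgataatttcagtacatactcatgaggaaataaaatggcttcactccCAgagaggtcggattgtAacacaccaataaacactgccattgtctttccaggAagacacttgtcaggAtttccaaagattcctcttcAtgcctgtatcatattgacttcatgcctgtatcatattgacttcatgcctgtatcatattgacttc
Olfr16 (chr1:172956518-172956767, plus strand): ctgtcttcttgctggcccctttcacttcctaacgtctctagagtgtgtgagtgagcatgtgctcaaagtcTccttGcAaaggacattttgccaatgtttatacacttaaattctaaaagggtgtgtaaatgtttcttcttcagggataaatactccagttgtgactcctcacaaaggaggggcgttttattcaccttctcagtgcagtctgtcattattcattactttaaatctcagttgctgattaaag
The capitals were spread unevenly along the windows, and the 3 of Olfr16 lay close together. Olfr287 had 4 SSB and 3 AP positions in the 250 bases, Olfr324 had 1 and 5, Olfr457 had 3 and 6, Olfr572, a class I gene, had 1 and 8, and Olfr16 had 1 and 2. No nucleotide of these windows was listed in more than 2 of the 24 libraries. The promoter window of Olfr324 contains TAATTA, the core that homeodomain proteins such as Lhx2 bind, and that of Olfr287 contains CCCNNGGG, the core bound by Ebf proteins.

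The first comparison asked how many lesions the Olfr regions carry relative to the regions of other genes of 1 to 20 kb. Density is given as LPKM, the analogue of RPKM for lesions: lesion positions per kb of sequence, scaled to a library of 1000000 positions, with each listed nucleotide and strand counted once. The other genes were 9303 protein-coding genes of 1 to 20 kb, which with the same flanks merged into 6121 regions covering 152 Mb. Each library had 759 to 3672 SSB positions or 1507 to 3190 AP positions in Olfr regions.

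Olfr regions were poor in both kinds of lesion, in every tissue and in every library. Bone marrow showed the widest gap for SSBs, with 0.243 and 0.256 LPKM in Olfr regions of the 2 animals against 0.815 and 0.748 in the other genes. In brain the Olfr values were 0.262 and 0.265 against 0.667 and 0.650, and in heart they were 0.273 and 0.281 against 0.670 and 0.665. Brain and heart thus lay close together, and marrow stood apart mainly through its higher level in the other genes. Liver had 0.296 and 0.273 against 0.664 and 0.680, and PBMCs had 0.275 and 0.275 against 0.641 and 0.616. Sperm had the highest Olfr values, 0.301 and 0.304, and the lowest values in the other genes, 0.588 and 0.596. No Olfr value reached any value of the other genes in the same assay.

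For AP sites the Olfr densities of the 2 animals were 0.264 and 0.269 in bone marrow, 0.258 and 0.271 in brain, 0.260 and 0.287 in heart, 0.313 and 0.261 in liver, 0.278 and 0.267 in PBMCs, and 0.256 and 0.292 in sperm. The other genes had 0.669 and 0.637 in marrow, 0.639 and 0.617 in brain, 0.613 and 0.584 in heart, 0.544 and 0.633 in liver, 0.601 and 0.618 in PBMCs, and 0.646 and 0.571 in sperm. The Olfr values of the tissues overlapped each other, and here again none approached the other genes.

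**Figure D1:**
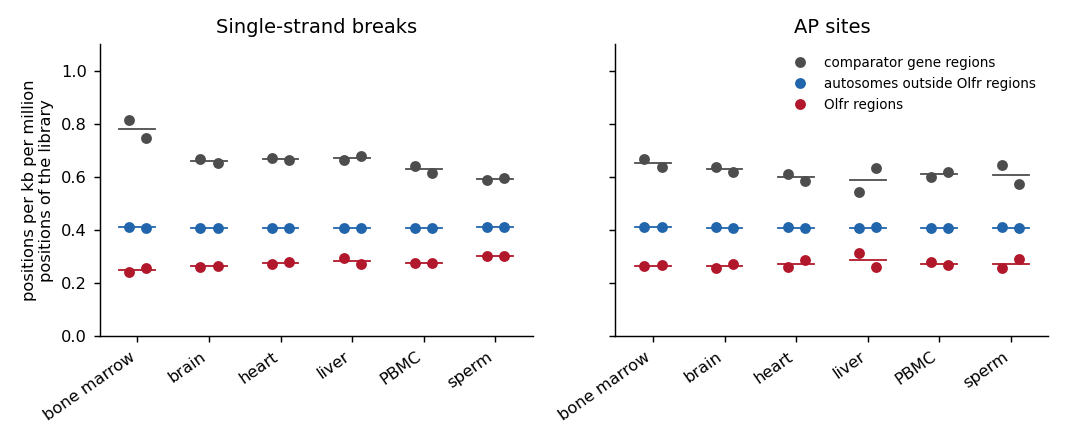
Lesion density (LPKM) of the merged Olfr regions (red), of the autosomes outside them (blue) and of the regions of other protein-coding genes of 1 to 20 kb (grey, comparator), per tissue, for SSBs and AP sites. Each point is 1 library and each short line the mean of the 2 animals. Olfr points lie between 0.243 and 0.313, below every blue and grey point.

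The SSB density of Olfr regions was 2.42-fold lower than that of the other genes (log2 ratio −1.27 ± 0.22, SD over 6 tissue means of 2 animals), and the AP density was 2.25-fold lower (−1.17 ± 0.090). The ratio was below 0 on the log2 scale in 6 of 6 tissues in each assay (exact two-sided sign-flip test over tissues, p = 0.03125, the smallest that 64 sign patterns can give). Of 50 such tests made here, 36 reached this smallest p, and their Benjamini-Hochberg adjusted value is 0.0434. Against all autosomal sequence outside Olfr regions, which had 0.409 to 0.411 LPKM in the SSB libraries, the Olfr density was 1.49-fold lower for SSBs and 1.5-fold lower for AP sites (log2 −0.57 and −0.59). Without flanks the ratio to other genes shrank to −0.41 for SSBs and −0.33 for AP sites, with p = 0.03125 by the same exact test in each.

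The deficit was seen in nearly all regions. The median Olfr region held 17 SSB positions over the 12 libraries (0 to 155, with 3 regions at 0) and 26 AP positions (0 to 199, with 2 regions at 0). The median density was 0.248 LPKM for SSBs (quartiles 0.182 and 0.347) and 0.232 for AP sites (0.166 and 0.339). Below the pooled density of the other genes, 0.669 for SSBs and 0.617 for AP sites, were 897 of 910 regions (98.6%) and 876 regions (96.3%). Only 137 Olfr regions (15.1%) exceeded the density of the autosomes for SSBs and 144 (15.8%) for AP sites, whereas 76.6% and 75% of the regions of all other genes did.

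Next, the tissues were compared. On the log2 scale the SSB ratio of Olfr regions to other genes was −1.75 and −1.55 in bone marrow, −1.35 and −1.29 in brain, −1.29 and −1.24 in heart, −1.17 and −1.32 in liver, −1.22 and −1.16 in PBMCs, and −0.97 and −0.97 in sperm. The deficit was thus 3.13-fold in marrow and 1.96-fold in sperm, with the values of brain, heart, liver and PBMCs lying between these ends and partly overlapping. The tissues differed by more than the spread between animals (F = 16.1, p = 0.00366, exact permutation test over 10395 pairings of the 12 libraries). The difference held without sperm (F = 9.08, p = 0.0402) and without bone marrow (F = 11.7, p = 0.0402) in the same exact test. Both terms of the ratio moved: the Olfr density differed between tissues (F = 9.70, p = 0.00346) and so did the density of the other genes (F = 19.9, p = 0.000962), each by the exact permutation test. The F of the ratio was 26.6 without marrow replicate 2 (p = 0.00366) and 10.6 and 10.7 without sperm replicates 1 and 2 (p = 0.00366 each, exact permutation test). Relative to the autosomes outside Olfr regions the tissues also differed (F = 9.25, p = 0.00433, exact permutation test).

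Taken singly, bone marrow lay 0.45 below the other tissues on the log2 scale (exact permutation test of 2 libraries against 10, p = 0.0152, adjusted p = 0.0606 over 4 tests), and sperm lay 0.36 above them (p = 0.0303, adjusted p = 0.0606). Neither passed after adjustment, and 2 libraries against 10 cannot give a p under 0.0152. These 2 tissues were tested because both stood apart in long genes in earlier results on the same data. The choice was therefore not independent of these libraries. For AP sites no difference between tissues was detected (F = 0.437, p = 0.828, exact permutation test), with single values from −0.80 in one liver library to −1.34 in one marrow library. This F rose to 1.74 (p = 0.283) without liver replicate 2, 0.750 (p = 0.580) without sperm replicate 1 and 0.657 (p = 0.641) without sperm replicate 2, and fell to 0.244 (p = 0.957) without marrow replicate 1, in the same exact test. The 2 liver animals, at −0.80 and −1.28, and the 2 sperm animals, at −1.33 and −0.97, lay farther apart than most tissues.

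Between the assays, the ratio was 0.10 ± 0.18 lower for SSBs than for AP sites on the log2 scale (mean −0.10, SD over 6 tissues, p = 0.219, exact sign-flip test), with 5 of 6 tissues below 0. The differences ran from −0.35 in bone marrow to 0.18 in sperm. Without sperm replicate 1 the mean was −0.13 with p = 0.03125, the smallest the exact test can give, and against the autosomes outside Olfr regions the difference was 0.013 (p = 0.625, exact sign-flip test), so its presence and sign depended on these choices.

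The tissues and assays were then compared region by region. Across tissues, 0 of the 791 Olfr regions with at least 10 SSB positions passed (edgeR quasi-likelihood test, Benjamini-Hochberg adjusted p under 0.05), against a background of 0.781% among all 19852 gene regions tested; 19 Olfr regions (2.40%) had an unadjusted p under 0.05, against 9.23% of all regions. The smallest adjusted p was 0.113, at the region of Olfr720, and DESeq2 called 0 Olfr regions as well. For AP sites 0 of 876 Olfr regions passed, where the background was 0% of 20073, and DESeq2 called 0 as well. An unadjusted p under 0.05 was found in 17 Olfr regions (1.94%) and in 3.99% of all regions. Between the assays, 1 of 906 Olfr regions passed and it was higher in SSB libraries, where the background was 1.13% of all 20170 regions higher in SSB libraries and 1.38% higher in AP libraries. That region holds Olfr1287 (chr2:111444142-111455059), with 23 SSB and 7 AP positions (log2 difference 2.02, edgeR adjusted p = 0.0436), and DESeq2 did not call it. An unadjusted p under 0.05 between the assays was found in 36 Olfr regions (3.97%) and in 14.8% of all regions. The median log2 difference of SSB against AP was −0.022 over Olfr regions and −0.013 over all regions. The median Olfr region held only 17 SSB and 26 AP positions, and power depends on this number. The shares of Olfr regions and of all regions are therefore not of equal sensitivity.

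The genome position of the genes gave larger units. Joining Olfr genes less than 1 Mb apart gave 47 clusters, of which 22 had at least 10 genes and together held 1020. This grouping was chosen after the data were seen, because no merged region reached 10 genes. The 22 clusters differed among themselves, from 0.412 to 1.16 of the autosomal SSB density (median 0.655, 19 below 1) and from 0.338 to 1.26 of the autosomal AP density (median 0.648, 18 below 1). All 22 were below the other genes of 1 to 20 kb, at 0.252 to 0.712 of their density for SSBs and 0.224 to 0.838 for AP sites.

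The 3 clusters poorest in SSBs were Olfr24 to Olfr18 on chromosome 9 (35 genes, 0.412 of the autosomal density for SSBs and 0.338 for AP sites), Olfr172 to Olfr209 on chromosome 16 (25 genes, 0.414 and 0.405) and Olfr310 to Olfr292 on chromosome 7 (15 genes, 0.432 and 0.423). The 3 richest in SSBs were Olfr62 to Olfr1328 on chromosome 4 (13 genes, 1.16 and 1.18), Olfr1396 to Olfr1380 on chromosome 11 (19 genes, 1.14 and 1.06) and Olfr30 to Olfr225 on chromosome 11 (24 genes, 1.01 and 1.23). For AP sites Olfr522 to Olfr541 on chromosome 7 (19 genes) was the highest, at 1.26, with 0.956 for SSBs. The order of the clusters was much alike in both assays (across 22 clusters, Pearson's r = 0.935 and Spearman's rho = 0.941, a description over clusters measured in the same 12 samples). The clusters had 4.59 to 34.5 other protein-coding genes per Mb within 1 Mb, and this gene density went with the lesion density with r = 0.506 and rho = 0.698 for SSBs and r = 0.523 and rho = 0.645 for AP sites, again as a description over 22 clusters.

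**Figure D2:**
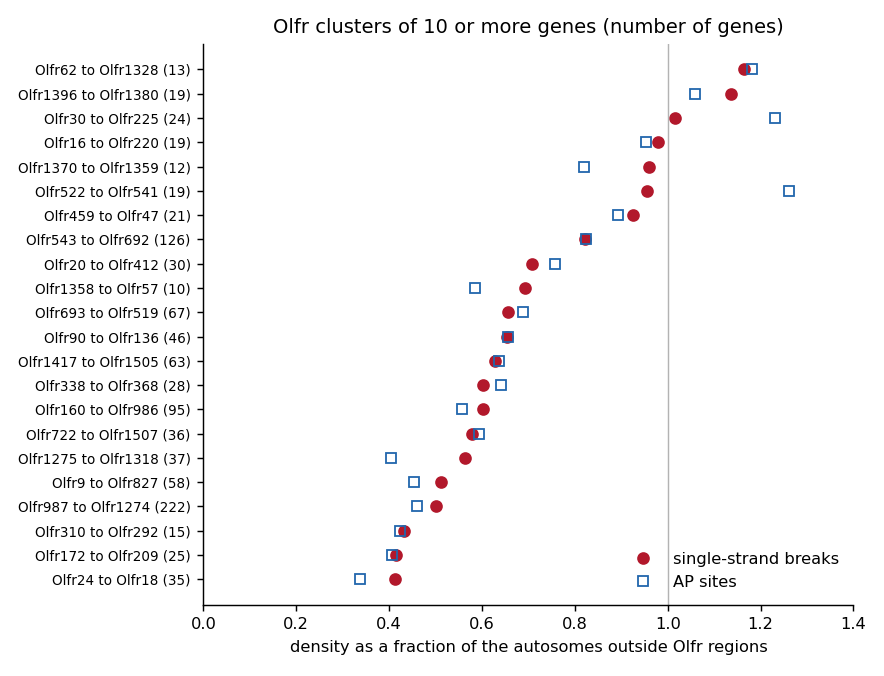
Lesion density of the 22 Olfr clusters with at least 10 genes, as a fraction of the density of the autosomes outside Olfr regions, for SSBs and AP sites, pooled over the 12 libraries of each assay. The vertical line is a fraction of 1; clusters run from 0.412 to 1.16 for SSBs and from 0.338 to 1.26 for AP sites, in much the same order.

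With clusters as units, 3 of 45 Olfr clusters differed in SSB density across tissues (edgeR, adjusted p under 0.05), where the background among all units was 0.864%. An unadjusted p under 0.05 was found in 8 of the 45. A cluster holds many more positions than a single gene, so the share and the background are not of equal sensitivity. The cluster Olfr987 to Olfr1274 on chromosome 2, the largest with 222 genes, had 0.173 and 0.161 LPKM in marrow, 0.181 and 0.192 in brain, 0.195 and 0.226 in heart, 0.245 and 0.197 in liver, 0.221 and 0.169 in PBMCs, and 0.246 and 0.220 in sperm (edgeR adjusted p = 4.72e-05). Marrow was lowest there and did not overlap brain, heart, liver or sperm, while liver, PBMCs and sperm overlapped. The cluster Olfr160 to Olfr986 on chromosome 9 (95 genes) had 0.344 and 0.318 in sperm and 0.197 to 0.268 in all other libraries (edgeR adjusted p = 9.54e-05), so sperm stood alone. The chromosome 7 cluster Olfr543 to Olfr692 (126 genes, 120 of class I) had 0.397 and 0.392 in sperm, 0.268 and 0.383 in marrow, and 0.287 to 0.374 in the other tissues (edgeR adjusted p = 0.00447). Across the 22 large clusters, marrow was the lowest tissue for SSBs in 11 and sperm the highest in 11, and sperm was above marrow in 17. For AP sites 0 of 46 clusters passed (2 at an unadjusted p under 0.05, background 0%), and sperm was above marrow in 13 of 22.

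Between the assays 3 of 47 clusters passed in edgeR, 1 higher for SSBs and 2 higher for AP sites, where the backgrounds were 1.21% and 1.41%. Olfr1275 to Olfr1318 on chromosome 2 was higher for SSBs (log2 0.36, edgeR adjusted p = 0.0160). Olfr522 to Olfr541 and Olfr30 to Olfr225 were higher for AP sites (log2 −0.45, adjusted p = 0.000299, and −0.33, adjusted p = 0.00686, edgeR).

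The largest merged region, Olfr1279 to Olfr1284 with 6 genes (chr2:111301201-111384937), had 98 SSB positions (0.212 LPKM) and 107 AP positions (0.145). The class I region with the most genes, Olfr596 to Olfr600 (chr7:103304723-103351926), had 66 SSB positions (0.253) and 112 AP positions (0.269). Of the other large ones, the region of Olfr65 and Olfr631 to Olfr633 (chr7:103901342-103952506) had 0.382 and 0.430, that of Olfr630, Olfr69, Olfr68 and Olfr67 (chr7:103749150-103796830) had 0.327 and 0.252, and that of Olfr1426 to Olfr1428 and Olfr76 (chr19:12082610-12125674) had 0.345 in both assays. All lay below the other genes.

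The 5 receptors with known roles outside the nose were taken by name. Olfr16 (chr1:172956768-172957817), which acts in sperm chemotaxis and in muscle, had 25 SSB positions over 12 libraries with its flanks (lowest 0, median 1.5, highest 8 per library) and 47 AP positions (0, 3.5 and 7), or 0.410 and 0.482 LPKM. In sperm it had 1 and 2 SSB positions in the 2 libraries, within the range of the other tissues. Olfr78 (chr7:102740721-102759471), a receptor for short-chain fatty acids and lactate in the carotid body and kidney, had 72 SSB (1, 4.5 and 16) and 121 AP positions (2, 10 and 16), or 0.454 and 0.477 LPKM. Olfr558 (chr7:102702323-102712054), found in vascular smooth muscle, had 61 (1, 3.5 and 21) and 113 (0, 9.5 and 16), or 0.560 and 0.649 LPKM. Olfr544 (chr7:102484114-102488307), which binds azelaic acid in fat and liver cells, had 56 (1, 5 and 9) and 73 (2, 6 and 11), or 0.715 and 0.583 LPKM, and for SSBs lay above the pooled density of the other genes. Olfr2 (chr7:107000875-107002605), the octanal receptor, had 20 (0, 1.5 and 6) and 24 (0, 2 and 4), or 0.309 and 0.232 LPKM. Tissues were not compared for single receptors.

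Class I and class II genes were then compared, using the MOR family number among the synonyms (up to 42 for class I, higher numbers for class II), which placed 122 and 943 genes and left 38 in neither. All class I genes lay on chromosome 7, between 102476773 and 108565793. Class I genes carried more lesions, with 0.349 ± 0.033 LPKM against 0.267 ± 0.017 for SSBs and 0.345 ± 0.014 against 0.265 ± 0.0092 for AP sites (SD over 6 tissue means). The difference was 1.30-fold in each assay (log2 0.38 in both, higher in 6 of 6 tissues, p = 0.03125, exact sign-flip test). The 2 marrow SSB libraries were far apart, at 0.13 and 0.73. Of the 122 class I genes, 120 lay in the cluster Olfr543 to Olfr692, which held no class II gene, and 2 lay in the cluster Olfr693 to Olfr519 beside 64 class II genes. For those 120, class and genome position cannot be told apart.

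Lesions were concentrated within the receptor genes themselves. In the gene spans, without flanks, the SSB density was 2.71-fold that of the flanking sequence outside any protein-coding gene, and the AP density 2.68-fold (log2 1.44 ± 0.084 and 1.42 ± 0.056, SD over 6 tissues, 6 of 6 above 0, exact sign-flip p = 0.03125). Among 790 Olfr genes annotated with a span of at most 1.5 kb (median 945 bp), the difference was larger. These genes were chosen by length alone, and their exons were not read. SSBs had 0.882 ± 0.068 LPKM within these spans against 0.222 ± 0.019 in the flanks, and AP sites had 0.886 ± 0.025 against 0.221 ± 0.0081, which is 3.96-fold and 4.01-fold (p = 0.03125 each, exact sign-flip test over tissues). In single libraries the log2 difference was 1.78 to 2.21 for SSBs and 1.74 to 2.12 for AP sites, so no library came near 0.

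The surroundings of the genes also differed. Between 48 and 50 kb upstream of 938 Olfr genes the density was 0.195 LPKM for SSBs and 0.199 for AP sites. In the 2 kb before the start it was 0.294 and 0.295, in the first 2 kb of the gene 0.523 and 0.527, and from 2 to 4 kb it returned to 0.218 and 0.202. The 7412 other genes had 1.02 and 0.806 LPKM in their first 2 kb, and the higher level reached into the 2 kb upstream (0.783 and 0.620) and on to 4 kb (0.721 and 0.680).

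**Figure D3:**
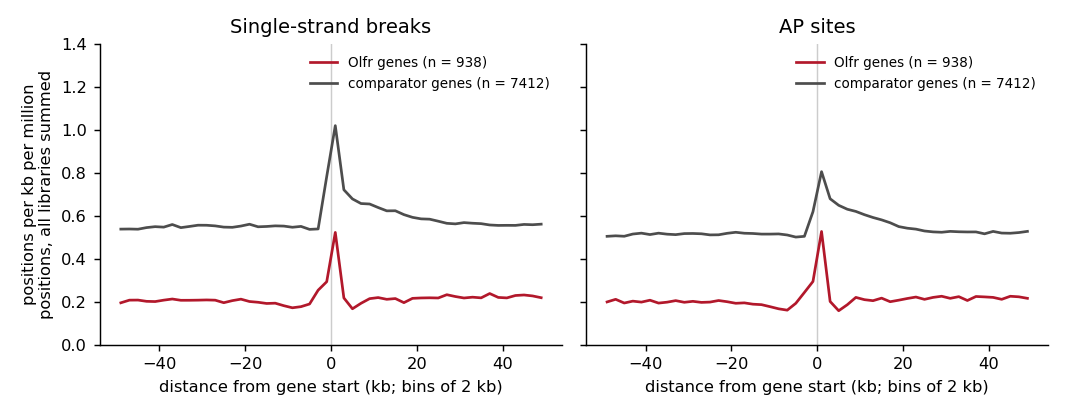
Lesion density (LPKM, 2 kb bins) by distance from the gene start, for 938 Olfr genes and 7412 other protein-coding genes of 1 to 20 kb (comparator), with all libraries of an assay summed. Olfr genes show a narrow rise to 0.523 and 0.527 in the first 2 kb on a low surround, below the other genes at the same distance.

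At finer scale, the rise in short Olfr genes followed the gene. From 500 to 250 bp before the start the density was 0.281 LPKM for SSBs and 0.291 for AP sites, and in the last 250 bp before it 0.368 and 0.429. It rose to 0.820 and 1.02 in the first 250 bp, 1.02 and 1.08 from 250 to 500 bp, and 0.909 and 0.806 from 500 to 750 bp. Past the median gene end it was down to 0.308 and 0.287, in the bin from 1000 to 1250 bp. The other genes had 1.26 and 0.895 LPKM from 250 to 500 bp, so within this stretch short Olfr genes were below the other genes for SSBs and above them for AP sites, as a description.

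SSBs and AP sites lay mostly on opposite strands of the receptor genes. The strand given in the files was read as the strand that carries the lesion; if it names the opposite strand, template and non-template exchange places below. In short Olfr genes SSBs had 0.261 ± 0.022 LPKM on the template strand and 0.621 ± 0.067 on the non-template strand, which is 2.38-fold more on the non-template strand (1121 against 2585 positions). AP sites had 0.559 ± 0.028 on the template strand and 0.327 ± 0.024 on the non-template strand, 1.71-fold more on the template strand (3763 against 2224 positions). The log2 ratio of template to non-template was −1.25 ± 0.22 for SSBs and 0.77 ± 0.16 for AP sites, each with 6 of 6 tissues on one side of 0 (p = 0.03125, exact sign-flip test).

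Every library showed it. The SSB log2 ratios of the 2 animals were −0.99 and −1.39 in marrow, −0.88 and −1.17 in brain, −0.992 and −0.997 in heart, −1.54 and −1.25 in liver, −1.01 and −2.0 in PBMCs, and −1.49 and −1.32 in sperm. The AP ratios were 0.79 and 0.57 in marrow, 0.68 and 0.72 in brain, 0.53 and 0.58 in heart, 0.79 and 1.105 in liver, 0.70 and 0.95 in PBMCs, and 0.95 and 0.92 in sperm. The ranges of the assays did not overlap in any tissue, and the SSB ratio was 2.03 lower than the AP ratio of the same sample (mean −2.03 ± 0.36, 6 of 6 tissues, p = 0.03125, exact sign-flip test).

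**Figure D4:**
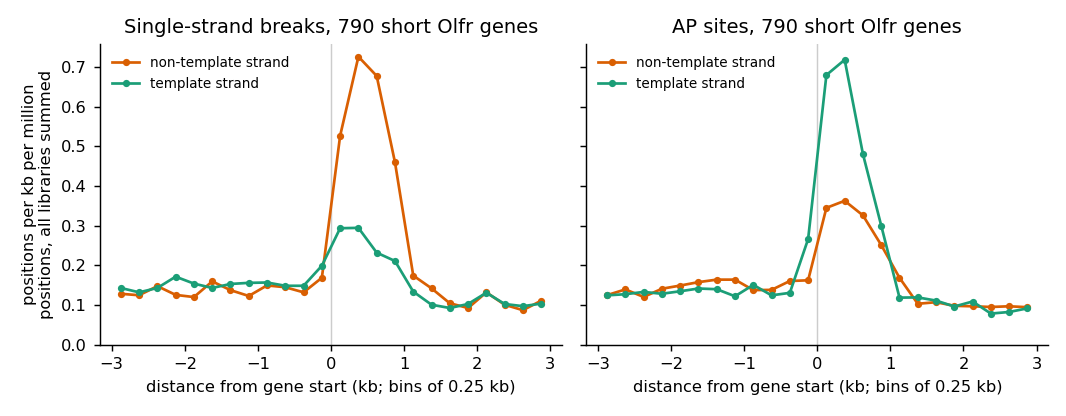
Lesion density (LPKM, 250 bp bins) on the template and the non-template strand of 790 Olfr genes with spans of at most 1.5 kb, by distance from the gene start, with all libraries of an assay summed. From 250 to 500 bp SSBs reach 0.726 on the non-template and 0.295 on the template strand. AP sites reach 0.718 on the template and 0.363 on the non-template strand there. Outside the genes both pairs of lines come closer together. In the last 250 bp before the start the AP lines are still apart, at 0.266 (template) and 0.162 (non-template).

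Averaged over the 5 kb on each side of the spans, the strands were nearly even. For AP sites this did not hold in the last 250 bp before the start. There the template strand had 0.266 LPKM and the non-template strand 0.162. Upstream of the short Olfr genes the log2 ratio was 0.098 for SSBs (p = 0.03125) and −0.037 for AP sites (p = 0.344), and downstream it was −0.066 (p = 0.281) and −0.074 (p = 0.0625), all by the exact sign-flip test. Among 5967 other genes of 1 to 20 kb the ratio over the whole span was −0.19 for SSBs (p = 0.03125) and 0.013 for AP sites (p = 0.375, exact sign-flip test). Their spans had 0.349 LPKM on the template and 0.398 on the non-template strand for SSBs, and 0.347 and 0.344 for AP sites. With both strands together, the short Olfr spans were denser than these spans in each assay, as a description. The ratio of short Olfr genes was below that of these genes by 1.06 for SSBs and above it by 0.76 for AP sites (difference −1.06 ± 0.19 and 0.76 ± 0.15, p = 0.03125 each, exact sign-flip test). Over all 932 Olfr genes used for strand the ratios were −0.98 and 0.59. Both receptor classes showed the pattern, with −1.13 and 0.92 in 91 short class I genes and −1.26 and 0.75 in 671 short class II genes (each p = 0.03125, exact sign-flip test). The base composition of the gene spans was not read, so its part in the strand values was not tested.

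The clustered vomeronasal receptor genes were the family most like Olfr. Olfr regions had 1.80-fold more SSBs and 1.63-fold more AP sites per kb than the 345 regions of Vmn1r and Vmn2r genes, which had 0.153 and 0.167 LPKM (log2 0.85 and 0.71, p = 0.03125, exact sign-flip test). They had 1.73-fold fewer SSBs and 1.68-fold fewer AP sites than the 323 regions of Zfp genes, zinc finger genes that also cluster, at 0.474 and 0.458 LPKM (log2 −0.79 and −0.75, p = 0.03125, exact sign-flip test). In 184 short Vmn1r genes, single-exon receptors of the vomeronasal organ, the span exceeded the flanks 2.82-fold for SSBs and 3.66-fold for AP sites, with p = 0.03125 in the exact sign-flip test. Their strand ratios were −0.82 ± 0.69 for SSBs (5 of 6 tissues below 0, p = 0.0625) and 0.34 ± 0.29 for AP sites (6 of 6 above 0, p = 0.03125, exact sign-flip test), on fewer positions (416 and 898). The AP ratio lost its call without marrow replicate 1 (0.34, p = 0.0625), heart replicate 2 (0.30, p = 0.09375) or PBMC replicate 2 (0.30, p = 0.0625) in the exact test.

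Receptor genes with near-identical copies can share or lose reads in mapping. Spans of 46 Olfr genes whose promoter window was at least 95% identical to that of another Olfr gene had 0.448 ± 0.065 LPKM for SSBs, against 0.561 ± 0.031 in 699 genes under 80% identity. The log2 difference was −0.36 ± 0.12 (6 of 6 tissues below 0, p = 0.03125, exact sign-flip test), and without sperm replicate 1 it was −0.29 (p = 0.0625). For AP sites it was −0.16 ± 0.27 (p = 0.156, exact sign-flip test). The part of read mapping in the deficit of the whole family was not tested, since the alignments were not used here. The 699 genes of low promoter identity had span densities of 0.561 and 0.553 LPKM. They include genes with no aligned stretch of at least 200 bases, and the identity of coding sequences was not measured.

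Promoter windows (250 bases before to 50 after the gene start, GRCm38.p6) allowed the sequence itself to be taken into account. Of the Olfr genes, 938 had a window, with 643 SSB and 1287 AP positions in all (median 2 per window, 0 to 10), and 204 windows (21.7%) had none. The Olfr windows were rich in A and T, with 36.1 ± 6.25% G+C (SD over windows) against 56.0 ± 9.66% in 7412 other genes, and had 1.28 CpG per window against 14.2, with no CpG in 33.7% against 4.13%. In 680 (72.5%) the annotated start was the ATG start codon, against 4.79% of other genes, so for most receptors the upstream part lies before the coding sequence and not before a mapped start of transcription.

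Olfr windows had 3.57-fold fewer SSBs and 1.84-fold fewer AP sites than windows of other genes (log2 −1.84 ± 0.47 and −0.88 ± 0.20, 6 of 6 tissues, p = 0.03125, exact sign-flip test). Compared with windows of the same G+C content, in bins of 5%, the SSB deficit was 1.12-fold (log2 −0.16 ± 0.090, 640 positions where 736 were expected, p = 0.03125, exact sign-flip test). It did not pass without marrow replicate 1 (−0.12, p = 0.125), heart replicate 2 (−0.13, p = 0.0625) or PBMC replicate 1 (−0.10, p = 0.25) in the exact test. For AP sites there were 1282 positions where 1116 were expected (log2 0.18 ± 0.25, p = 0.125, exact sign-flip test), and without brain replicate 2 the log2 value was 0.10 (p = 0.531, exact sign-flip test). Matching on G+C content thus moved the log2 value from −1.84 to −0.16 for SSBs and from −0.88 to 0.18 for AP sites. The windows of Olfr and other genes also differ in CpG content and in the kind of annotated start. The part of each was not tested, and the whole regions could not be matched in this way.

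**Figure D5:**
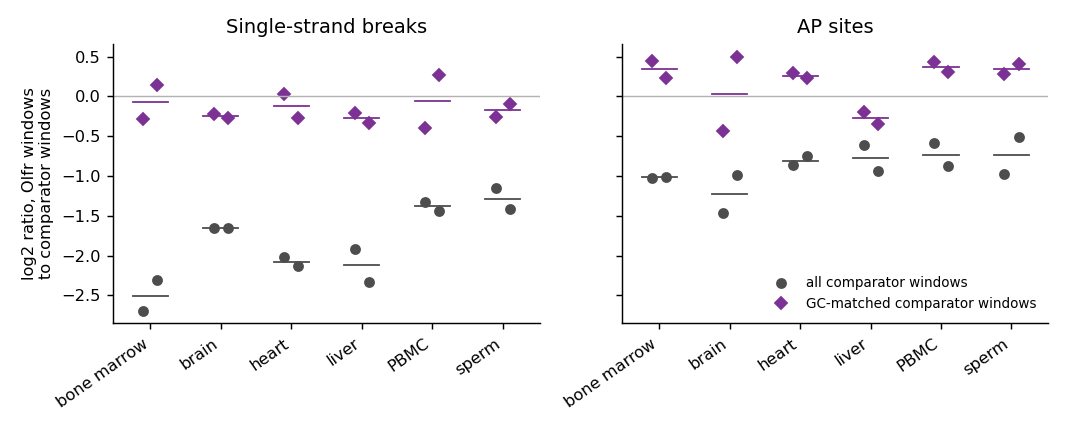
Log2 ratio of lesion density in promoter windows of 938 Olfr genes to windows of other genes, per tissue, without matching and matched on G+C content in bins of 5%, for SSBs and AP sites. Each point is 1 library, each short line the mean of the 2 animals, and the line at 0 marks equal density; matching moves the mean from −1.84 to −0.16 for SSBs and from −0.88 to 0.18 for AP sites.

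The bases at the listed positions differed between the assays. In Olfr windows, 50.4 ± 5.25% of AP positions were at A (SD over 12 libraries), 24.5% at G, 14.9% at T and 10.2% at C on the strand given, where A and T made up 32.0% each of the windows and C and G 18.0% each. SSB positions were at C in 35.8 ± 8.54%, at T in 28.9%, at G in 26.0% and at A in 9.24%. Purines thus led among AP positions, and A was the least frequent base among SSB positions. Neighbouring bases were uneven as well. At 2 bases before AP positions, on the 5′ side, C made up 49.7% and G 33.0%. At 1 base before SSB positions, C made up 41.8%. In windows of other genes these shares were 54.7%, 35.4% and 55.7%. In windows of other genes, with 22.0% A and 28.0% C, AP positions were at G in 37.4% and at A in 37.1%, and SSB positions at C in 38.5% and at A in 5.36%.

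The strand bias of AP sites reached the promoter windows. In the first 50 bases of the gene, 268 AP positions were on the template and 110 on the non-template strand (70.9% template, 2.43-fold by the mean over tissues, 6 of 6 tissues, p = 0.03125, exact sign-flip test). Of the purines in these bases, 50.5% were on the non-template and 49.5% on the template strand, and the part of base composition in the strand values was not tested. Without heart replicate 1 the log2 value moved from 1.28 to 1.24 (p = 0.0625, exact test). In the 250 bases before the start, 559 AP positions were on the template and 350 on the other strand (61.5%, 1.58-fold, p = 0.03125, exact sign-flip test). Windows of other genes showed no such difference for AP sites (p = 0.844 in the first 50 bases, p = 0.0625 before the start, exact sign-flip test). SSBs had 90 template and 70 non-template positions in the first 50 bases of Olfr genes (p = 0.125) and 268 and 215 before the start (p = 0.0625, exact sign-flip test), so the excess on the non-template strand seen along the spans was not found in the first 50 bases. Without sperm replicate 2 the upstream SSB value was 0.48 with p = 0.03125 in the exact test.

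TAATTA, searched on both strands, was in 176 Olfr windows (18.8%), in 3.49% of windows of other genes of 1 to 20 kb and in 4.61% of all 16457 windows. CCCNNGGG was in 29 Olfr windows (3.09%), in 15.9% of those of other genes and in 15.7% of all. Olfr windows with TAATTA had 0.302 LPKM for SSBs and 0.410 for AP sites, and those without it 0.440 and 0.543. Those with CCCNNGGG had 0.646 and 0.664, and those without it 0.407 and 0.514. The motifs differ in base composition, and these densities are a description.

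The regions of genes that act with the receptors did not share the low level of Olfr regions. The list held 24 genes of odorant signalling and receptor choice, all found in the annotation. With flanks, 23 of them exceeded the autosomal density in each assay, as did 76.6% (SSBs) and 75% (AP sites) of the regions of all other genes. Their median was 0.718 LPKM for SSBs and 0.686 for AP sites, against 0.596 and 0.581 over the regions of all other genes and 0.248 and 0.232 over Olfr regions. Olfr regions are mostly flank, and the spans of short Olfr genes alone had 0.882 and 0.886 LPKM. Omp, the marker of mature olfactory neurons, had 1.004 and 1.09, Adcy3, the cyclase of odorant signalling, 0.742 and 0.775, Gng13, a G protein subunit, 0.911 and 1.14, and Emx2, a transcription factor for receptor choice, 1.23 and 0.979. Cnga4, a channel subunit, had 1.02 and 0.647, and Ebf3 0.922 and 1.06. All genes named so far lay above the SSB median of the list. At its lower end were Kdm1a with 0.454 and 0.533 and Gnal with 0.522 and 0.543. Pde1c, with 0.369 and 0.380, was the lowest in each assay and the only one below the autosomal density. The list ran from 0.369 to 1.23 LPKM for SSBs and from 0.380 to 1.14 for AP sites. In edgeR 0 of 24 passed across tissues for SSBs, where the background was 0.781%, and 2 had an unadjusted p under 0.05 (9.23% of all regions). For AP sites 0 passed (background 0%) and 4 had an unadjusted p under 0.05 (3.99% of all regions). Between the assays 0 passed (backgrounds 1.13% higher in SSB and 1.38% higher in AP libraries) and 7 had an unadjusted p under 0.05 (14.8% of all regions), with a median log2 difference of −0.12.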

How the data were processed

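Lesion positions of 24 libraries (SSBs and AP sites, 6 tissues, 2 animals each) were analysed as deposited by the authors. Each deposited file lists single nucleotides with a strand and a raw count (nearly always 1), on mouse build mm10 (GRCm38) per the labels. The aligner, its filters and its handling of reads that match several receptor copies are not given in the sources used here, and reads lost among near-identical copies would lower their density.

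Each listed nucleotide and strand was counted once, and densities are positions per kb, scaled to 1000000 positions per library (LPKM). Genes, classes and promoter windows were taken from RefSeq tables of GRCm38.p6. The unit of the exact sign-flip test was the tissue mean of a log2 ratio (64 patterns), tissues were compared by an exact permutation of the F statistic (one-sided, 10395 pairings), and single regions with at least 10 positions by edgeR's quasi-likelihood test with TMM and Benjamini-Hochberg adjustment over all gene regions. DESeq2, other filters and scalings, summed counts, libraries thinned to 225011 positions, removal of positions listed in several libraries, other comparators and each library left out were tried as alternatives. The edgeR steps were tested on simulated data.

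The regions, the gene lists and the 2 tissues tested singly were chosen with earlier results of these data known. Named were the 5 merged regions with the most Olfr genes, regions passing a test, the 3 highest and 3 lowest clusters of at least 10 genes, and 5 receptors used outside the nose. Replicate numbers were not used to pair samples across tissues, while SSB and AP libraries of a sample were paired per the labels. The software was edgeR 4.0.16 and DESeq2 1.42.0 in R 4.3.3, blastn 2.17.0 for identity, and scipy 1.17.1 with pandas 2.3.3 under Python 3.11.15.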

Additional observations from a re-analysis of the deposited data

Results flagged for a closer look

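The strand ratio of short Olfr genes differed between the assays. The log2 ratio of template to non-template strand was 2.03 lower for SSBs than for AP sites of the same samples (mean −2.03 ± 0.36 over 6 tissues, 6 of 6 below 0, p = 0.03125, exact sign-flip test). All 12 SSB libraries were below 0 and all 12 AP libraries above it.

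The SSB density of Olfr regions relative to other genes differed between the tissues (F = 16.1, p = 0.00366, exact permutation test), with bone marrow lowest and sperm highest. For AP sites of the same samples no difference was detected (F = 0.437, p = 0.828, exact permutation test), and the difference between these F values was not tested. The sperm DNA was purified with another kit, whose part was not tested, and the tissues also differed without sperm (F = 9.08, p = 0.0402, exact permutation test).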

How the results depend on the processing

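Of 732 values under alternative settings, over 49 results, 708 kept direction and call, and 40 results did so under every setting run, among them the lower density of Olfr regions, the tissue difference for SSBs, the class difference and the strand ratios of short Olfr genes. Added after the data were seen were the contrasts of short genes, their flanks, comparator genes and Vmn1r genes, the promoter windows, the clusters and the promoter identity groups. The strand ratio over all Olfr spans was planned. The assay difference of the ratio (−0.10) turned to 0.013 against all autosomal sequence outside Olfr regions, and ran from −0.13 (without sperm replicate 1, p = 0.03125, exact sign-flip test) to −0.072 with each sample left out. Regions called between the assays numbered 0 by DESeq2 and 0 to 2 with each sample left out: 2 without heart replicate 1 and 0 without marrow replicate 2, either brain replicate, heart replicate 2, liver replicate 2, PBMC replicate 1 or sperm replicate 2. With each library left out, the identity difference for SSBs ran from −0.43 to −0.29 (without sperm replicate 1), the SSB strand ratio upstream of short Olfr genes from 0.081 to 0.11 (0.083 without heart replicate 2 and 0.086 without liver replicate 2, each p = 0.0625 by the exact test), the AP strand ratio downstream from −0.091 to −0.056 (−0.081 and p = 0.03125 in the exact test without brain replicate 1), and the AP strand ratio of short Vmn1r genes from 0.29 to 0.40. The last was 0.36 (p = 0.0625, exact test) without recurrent positions. The G+C-matched SSB ratio of promoter windows ran from −0.21 to −0.10. The causes were not tested. Leaving out the flanks gave Olfr ratios of −0.41 (SSBs) and −0.33 (AP sites), and the tissue F ran from 10.6 to 26.6 for SSBs and from 0.244 to 1.74 for AP sites with each library left out, with no call changed.

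Deviations of same-numbered libraries from their tissue means correlated between tissues from −0.125 to 0.0646 for AP sites and from −0.0202 to 0.0213 for SSBs. Between SSB and AP libraries of the same tissue the correlation ran from −0.0142 to 0.0200. Among all of these, 0 of 36 pairs were over 0.1. The labels do not tie the numbers to a mouse, and the numbers were not used as pairs between tissues; whether same-numbered tissues share a mouse is not given in the sources used here. With the replicate number as a block, the tissue F was 17.9 for SSBs (p = 0.0167) and 0.445 for AP sites (p = 0.899) in the exact permutation test, and 0 regions passed across tissues in either assay, so the block changed none of these calls. Taking replicate number 1 alone gave Olfr ratios of −1.29 (SSBs) and −1.19 (AP sites), and number 2 alone −1.26 and −1.15. With tissue in place of sample as the block, 1 region passed between the assays. The median region held 17 SSB and 26 AP positions over all libraries, which limits the precision of single regions and receptors, and intervals from counting would cover counting error only.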

Other observations

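Few nucleotides were listed in more than 1 library of an assay. Such recurrent positions made up 0.921% to 1.27% of the SSB positions of a library and 2.48% to 3.12% of the AP positions. In Olfr regions they made up 0.387% to 1.22% and 2.30% to 3.14%, above the share of the whole library only in SSB bone marrow replicate 1 and in both AP brain libraries. Every AP library had a higher recurrent share than every SSB library, in Olfr regions as in the whole library. The AP libraries together held 8824020 positions and the SSB libraries 5518789. Recurrence depends on this depth, and the shares were not compared at equal depth.

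Among the 22 large Olfr clusters, liver was the tissue with the highest AP density in 10, and sperm in 4. The first liver library had the highest AP density in Olfr regions, 0.313 LPKM, and the lowest in the other genes, 0.544, whereas the second had 0.261 and 0.633.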
